A study of Mus musculus with 7 samples.

Results

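Regions of changed DNA methylation at 3 genes that mark recruited monocytes, Ly6c2, Ms4a4c and F13a1, were examined in airway macrophages (AMs) of Scnn1b-Tg and WT mice. They come from a list of 1926 differentially methylated regions (DMRs) that the authors called between the genotypes, and were taken by the gene symbol assigned to each region. Each of the 3 genes carried 1 region, so 3 of 1926 regions are described. The genes were chosen by name with their methylation levels known, and each region of the list had been selected on the difference in level between the same genotypes, so the levels below are a description and carry no test.

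The series held 3 Scnn1b-Tg samples and 4 WT samples of AMs, sorted from mouse lung as CD45+ Siglec-F+ CD11c+ cells and analysed without stimulation by whole-genome bisulfite sequencing of tagmented DNA (tWGBS). All mice were on a C57BL/6 background, and the study's methods describe females aged 6 weeks with WT littermates as controls. In Scnn1b-Tg mice the promoter of the club cell secretory protein drives overexpression of Scnn1b, a subunit of the epithelial sodium channel, and the airways become obstructed by mucus. That promoter is active in airway epithelium and is not one of macrophages. The labels do not say whether a sample is 1 mouse or a pool.

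A methylation level is the fraction of methylated CpG cytosines, from 0 to 1, and the table gives 1 level per region and genotype, averaged by the authors over CpGs and samples. It gives neither levels of single samples nor depth. The spread and the depth behind each value are therefore unknown, and whether the samples of both genotypes overlap cannot be said. The table does not name the genotype of its level columns. The first was read as that of Scnn1b-Tg AMs, since it was the lower one in 1404 of 1926 regions, the majority direction by the study's description. Each direction below rests on this reading. A region at Scnn1b, the gene that the transgene overexpresses, had 15 CpGs with a level of 0.574 in Scnn1b-Tg against 0.229 in WT AMs. It was annotated to exon 2 of 13, and whether reads of the transgene enter its Scnn1b-Tg level was not tested. The reading of the columns does not rest on this region.

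Resident AMs largely maintain themselves in the lung, whereas monocytes enter from the blood during inflammation and can turn into macrophages there. Ly6c2 encodes a small membrane-anchored protein of the Ly6 family whose antigen, Ly6C, marks inflammatory monocytes of the mouse. Ms4a4c encodes a membrane-spanning protein of the family that includes the B cell antigen CD20. F13a1 encodes the catalytic A subunit of coagulation factor XIII, which cross-links fibrin and is held in the cytoplasm of monocytes and macrophages. DNA methylation at CpGs is a stable mark of cell lineage and is often low at promoters and enhancers that are active in a cell type. In bulk DNA, a smaller share of cells with a methylated site and fewer methylated alleles per cell cannot be told apart.

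The sequences of the 3 regions show the CpGs that the reference has in each. They are given on the plus strand of GRCm38.p6 (the assembly behind mm10), with 1 base added at the right end because each region ends on the C of its last CpG. Capitals mark the CpGs of the reference, of which the authors counted 5 of 6 at Ms4a4c without naming the one left out.
Ly6c2, chr15:75103767-75103885: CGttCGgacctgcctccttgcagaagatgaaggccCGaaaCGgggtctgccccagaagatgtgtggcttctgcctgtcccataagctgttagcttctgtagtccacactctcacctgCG
Ms4a4c, chr19:11424104-11424170: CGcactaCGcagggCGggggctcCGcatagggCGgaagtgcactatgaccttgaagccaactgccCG
F13a1, chr13:37107767-37107953: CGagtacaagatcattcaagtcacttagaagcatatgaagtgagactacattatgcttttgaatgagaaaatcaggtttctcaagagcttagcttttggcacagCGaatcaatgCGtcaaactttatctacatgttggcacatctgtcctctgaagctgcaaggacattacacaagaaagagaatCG
The sequences share no layout. Ly6c2 has 2 close pairs of CpGs near its left end and a lone CpG 77 bases farther on, Ms4a4c has 5 CpGs within its first 33 bases and 1 at its right end, and F13a1 has a CpG at each end and 2 CpGs 10 bases apart between them.

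The Ly6c2 region was less methylated in Scnn1b-Tg AMs. Its 5 CpGs across 118 bp had a level of 0.680 in Scnn1b-Tg against 0.902 in WT AMs, a difference of -0.222. Put as unmethylated cytosines, that was 32.0% in Scnn1b-Tg against 9.79% in WT AMs, a ratio of 3.27. The regions of Ms4a4c and F13a1 had the opposite direction.

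The Ms4a4c region, with 5 CpGs in 66 bp, had a level of 0.807 in Scnn1b-Tg against 0.527 in WT AMs, a difference of 0.279. In WT AMs its CpGs were thus close to evenly split between methylated and unmethylated, while 19.3% were unmethylated in Scnn1b-Tg AMs. The F13a1 region, with 4 CpGs in 186 bp, had a level of 0.828 in Scnn1b-Tg against 0.609 in WT AMs, a difference of 0.219. Its unmethylated share was 17.2% in Scnn1b-Tg against 39.1% in WT AMs. The regions of Ly6c2, Ms4a4c and F13a1 thus did not share a direction, with 1 lower and 2 higher in Scnn1b-Tg AMs. Of all listed regions, 72.9% were lower and 27.1% higher. Because these genes were picked with their levels known, the split describes these regions only. It says nothing on the direction of monocyte markers as a set.

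**Figure D1:**
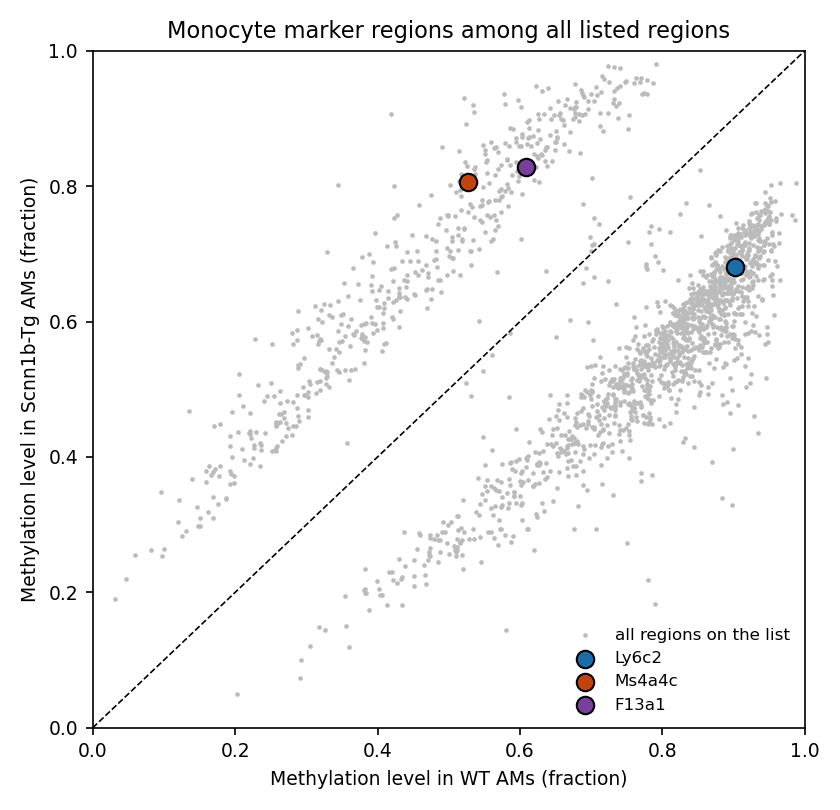
Methylation level (fraction) of each of the 1926 regions in Scnn1b-Tg AMs (vertical axis) and WT AMs (horizontal axis), 1 authors' mean per genotype, with the dashed line at equal levels. Ly6c2 lies below the line at 0.680 in Scnn1b-Tg against 0.902 in WT AMs, and Ms4a4c (0.807 against 0.527) and F13a1 (0.828 against 0.609) lie above it.

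Among regions of the same direction, the 3 differences were of different rank. The loss at Ly6c2 was exceeded in size by 919 of the 1404 regions that were lower in Scnn1b-Tg AMs (65.5%), whose median difference was -0.238. The gain at Ms4a4c was exceeded by 74 of the 522 regions that were higher in Scnn1b-Tg AMs (14.2%), whose median difference was 0.216. The gain at F13a1 was exceeded by 241 of the same 522 regions (46.2%). Ms4a4c thus belongs to the larger gains and Ly6c2 to the smaller losses. With regions under an absolute difference of 0.2 left out, 70.1% had a larger gain than F13a1. That cut removes only smaller differences, so it must raise this share for each of the 3 regions.

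In level, all 3 regions lay above the median of their direction in both genotypes, least clearly Ms4a4c in WT AMs. The Ly6c2 level was higher than that of 83.0% of the regions with the same direction in Scnn1b-Tg AMs and of 81.6% in WT AMs, where the medians of those regions were 0.570 and 0.829. The Ms4a4c level was higher than that of 68.6% of the regions that gained methylation in Scnn1b-Tg AMs and than 313 of these 522 regions in WT AMs, with medians of 0.691 and 0.470. The F13a1 level stood above 71.6% of them in Scnn1b-Tg and 76.4% in WT AMs. Regions with nearly the same difference show the same placing. The regions next above and next below Ly6c2 in size of loss had levels of 0.405 against 0.627 and of 0.292 against 0.514 in Scnn1b-Tg and WT AMs, both far below the levels at Ly6c2. Those next to Ms4a4c had 0.638 against 0.359 and 0.610 against 0.332, and those next to F13a1 had 0.755 against 0.536 and 0.634 against 0.415.

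The region assigned to Ly6c2 was classed as distal intergenic by the authors, 8065 bp from the transcription start site (TSS) of their gene model. The gene is on the minus strand (75108161 to 75112066), and the region lies 4.28 kb past its 3' end, so Ly6c2 is the nearest protein-coding gene but the region is at its tail and not at its promoter. RefSeq places it in exon 1 of 3 of Gm52219, a long non-coding RNA on the plus strand of unknown role (exon from 75103442 to 75105007), while GENCODE vM21 has no gene over it. The next protein-coding genes are Ly6c1, 54.8 kb to the left, and Ly6a2, 27.4 kb to the right, both of the Ly6 family of membrane-anchored surface proteins.

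The region at Ms4a4c is the sole one of the 3 inside its gene. It lies in intron 6 of 6 of its curated RefSeq transcript, an intron of 4836 bp (11421360 to 11426195), 2744 bp after its start and 2026 bp before its end. The authors placed it 9312 bp from the TSS of their gene model, and the RefSeq gene, which begins farther upstream, has its start 19.4 kb away. The gene is on the plus strand and ends 3.08 kb to the right of the region. Ms4a4a lies 31.2 kb to the left and Ms4a4b 19.4 kb to the right in the same cluster of membrane-spanning genes.

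The F13a1 region lies 57.5 kb upstream of the F13a1 TSS and was classed as distal intergenic. F13a1 is on the minus strand (36867178 to 37050244), and Ly86, the next protein-coding gene on the other side, begins 237 kb away. The nearest annotated feature of any kind was the pseudogene Gm18643, at 12.2 kb. The assignment to F13a1 is therefore one by distance alone.

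**Figure D2:**
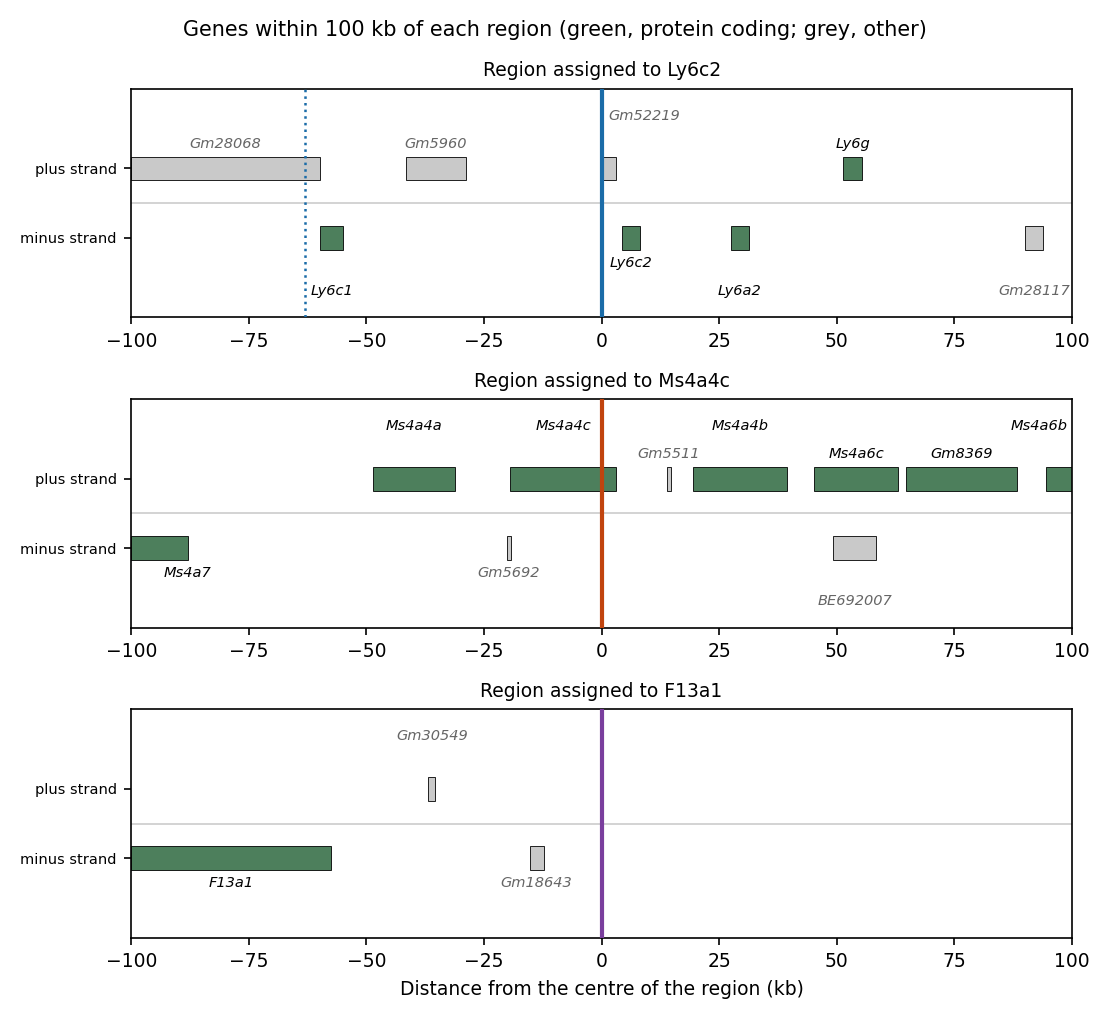
RefSeq genes within 100 kb of each region, by distance from the centre of the region (kb), on the plus strand above and the minus strand below; green marks protein-coding genes, grey other genes, the coloured line the region and the dotted line the exact copy of the Ly6c2 region 63.2 kb away. The Ly6c2 region lies 4.28 kb past the end of its gene, the Ms4a4c region inside its gene and the F13a1 region 57.5 kb upstream of its gene.

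The regions also differed in repeat content. In the soft-masked reference the Ly6c2 and Ms4a4c regions were masked as repeats over 100% of their length, and the F13a1 region over 0%. Of all listed regions, 574 of 1926 (29.8%) were fully masked, 34.3% of those lower and 17.8% of those higher in Scnn1b-Tg AMs, and 399 (20.7%) held no masked base. The Ms4a4c region sits in 1 masked stretch of 1722 bp, and the Ly6c2 region in one of 187 bp. GC content was 56.8% at Ly6c2, 65.2% at Ms4a4c and 39.2% at F13a1. CpG density followed the same order, with 4.24 CpGs per 100 bp at Ly6c2, 7.58 at Ms4a4c and 2.15 at F13a1. Ms4a4c was denser in CpGs than 84.3% of the regions with its direction and shorter than all but 9.58% of them, whereas F13a1 was denser than 21.8% of them.

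Copies elsewhere in the genome bear on where the reads of a repeat can be placed, so they were counted on the reference chromosomes at 80% or more of a region's length. The F13a1 region had 0 copies at 80% identity or more. The Ly6c2 region had 2936 copies at 80% identity or more, 20 at 90% or more and 1 at 95% or more. The Ms4a4c region had 572, 297 and 89 copies at these identities, and those at 90% or more lay on 20 chromosomes. At these limits the F13a1 sequence had no copy, the Ly6c2 sequence had many diverged copies and 1 close copy, and the Ms4a4c sequence had many close copies.

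The close copy of the Ly6c2 region was exact over its 118 bp. It lies at chr15:75040615-75040732, 63.2 kb to the left and 3.29 kb past the end of Ly6c1, the neighbouring gene that encodes a second Ly6C protein. Both copies belong to a duplicated block of 13.1 kb with 95.1% identity that also holds the Ly6c2 gene. The exact stretch spans 125 bp (75103762 to 75103886), which is also the read length of the libraries. A read of that length must lie wholly inside it to fit both places equally well. This is the case for 0.8% of the read positions over each CpG, also after bisulfite conversion. The share holds for reads of the full 125 bases only. Reads shortened by trimming fit inside the stretch at more positions, and their share was not counted. None of the 1926 regions lies at the Ly6c1 copy. Levels at that copy were not analysed here, and the part of read placement in the Ly6c2 value was not tested.

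At Ms4a4c, read placement was less certain. Windows of 125 bases centred on its CpGs occurred once in the genome as plain sequence in 6 of 6 cases. With every C written as T, as bisulfite reads of unmethylated DNA appear, 6 of 6 windows read from the minus strand occurred more than once, up to 14 times, and 0 of 6 windows read from the plus strand did. No such repeat was found for the 5 windows of Ly6c2 or the 4 windows of F13a1. Across the list, 700 of 1926 regions (36.3%) held a window that was repeated after conversion, 40.9% of those lower and 24.1% of those higher in Scnn1b-Tg AMs. The reference has 6 CpGs in the Ms4a4c region and the authors counted 5, without naming the one left out. The mate of a read pair can place such a read, and the part of this repeat in the Ms4a4c levels was not tested.

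**Figure D3:**
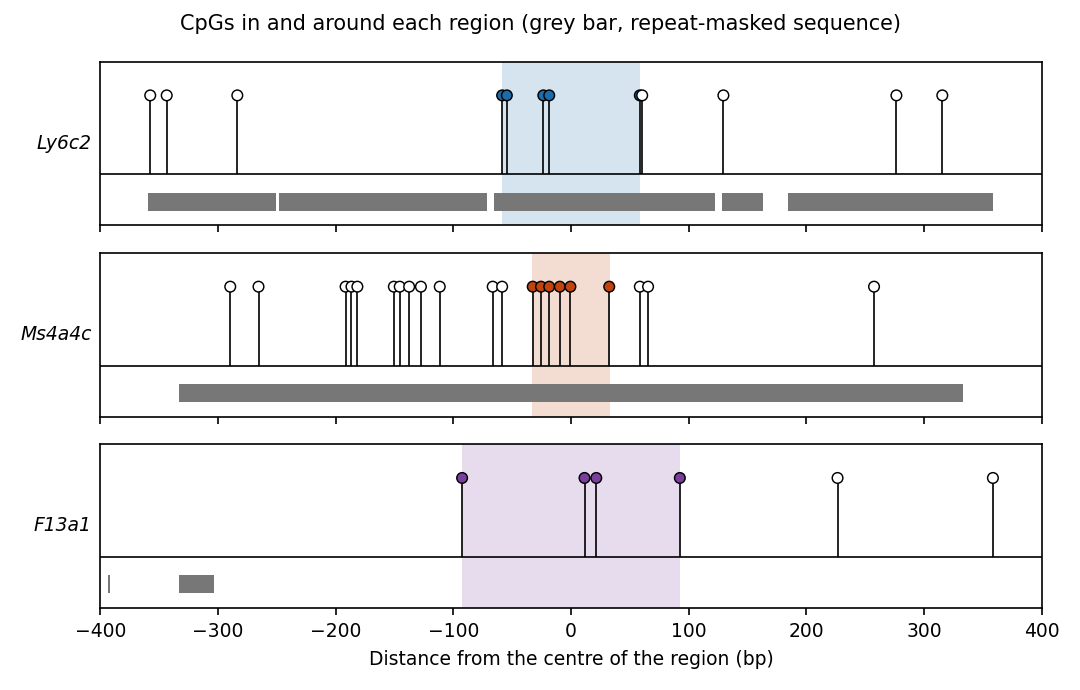
CpGs of the reference (circles) by distance from the centre of each region (bp), with the region shaded, filled circles inside it, open circles in the 300 bp on either side, and grey bars for repeat-masked sequence. Ly6c2 and Ms4a4c are fully masked, with 5 and 6 reference CpGs inside and 7 and 15 around them, while F13a1 is unmasked with 4 inside and 2 around it.

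The promoters of these genes offered few CpGs that could have been called. In the RefSeq windows from 250 bases before to 50 bases after each start, Ly6c2 had 0 CpGs at both of its starts, Ms4a4c had 0, and F13a1 had 3 and 5 at its 2 starts. The smallest region of the list holds 4 CpGs, and 10310 of 32851 promoter windows of all genes (31.4%) held fewer than that. Among the recruited monocyte markers it was 12 of 21 windows, which belong to 17 of the 24 genes on that list. A change at the start of Ly6c2 or Ms4a4c could thus not enter the list on CpGs of these windows alone, and its absence there is no measurement of promoter methylation.

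Short sequence motifs of factors that act in monocytes and macrophages were looked up on both strands of each region: GAGGAA (ETS factors such as PU.1), TTGCNNAA (C/EBP), TGANTCA (AP-1), TGTGGT (RUNX), GAAA followed by a second GAAA after any 2 bases (IRF), and TTC followed by GAA after any 4 bases (STAT6). The Ly6c2 region held 1 match, TTGCAGAA for C/EBP at chr15:75103784-75103791, bases 18 to 25 of the region and 11 bases from the nearest CpG. Of windows of 118 bp at the centres of all listed regions, 6.07% held this motif. The Ms4a4c and F13a1 regions held 0 matches to the 6 motifs, which says only that these letters are not in these windows.

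The 3 genes belong to a list of 24 genes called recruited monocyte markers here, which also holds genes of patrolling monocytes such as Cx3cr1 and Treml4. Of the 24, 4 (16.7%) were assigned a region, against 6.15% of 21631 protein-coding genes. Since 3 of the 4 are the genes picked for having one, nothing is read from that share. The same holds for their families, in which 1 of 21 Ly6 genes, 1 of 21 Ms4a genes and 1 of 8 transglutaminase genes, each time the gene picked, were assigned a region. The fourth was Chil3, the gene of a chitinase-like secreted protein that marks resident AMs as well. It had the widest difference of the 4, with a level of 0.294 in Scnn1b-Tg against 0.676 in WT AMs over 6 CpGs. By direction, 2 of the 4 were lower (Ly6c2 and Chil3) and 2 higher (Ms4a4c and F13a1) in Scnn1b-Tg AMs, where 4.46% of protein-coding genes were assigned a lower and 1.91% a higher region.

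The other 20 markers were assigned none. Their distance to the nearest region was 13.1 kb to 1777 kb, with a median of 296 kb, and was over 500 kb for 7 of them. Over all 20301 protein-coding genes without an assigned region the median was 464 kb, and 47.4% were over 500 kb away. Ccr2, the chemokine receptor by which monocytes leave the bone marrow, was 347 kb from the nearest region, Cx3cr1, the fractalkine receptor of patrolling monocytes, 624 kb, and Plac8 1777 kb. The nearest was Itgam, which encodes the integrin chain CD11b, at 13.1 kb from a region assigned to the neighbouring Itgax. Of the ligands and adhesion molecules that bring monocytes into tissue, 0 of 14 genes were assigned a region, a count too small to set apart from the 6.15% of all protein-coding genes. Within 100 kb, 2 of them had one (14.3%), where 18.1% of all protein-coding genes did.

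Markers of other cells were counted on the same list to show what else was called. The lists are short and were chosen with earlier results known. No share is therefore read as above or below the 6.15% of all protein-coding genes. Markers of monocyte-derived and interstitial macrophages held 2 of 18 genes (11.1%), both lower in Scnn1b-Tg AMs. C1qb, a chain of complement C1q, stood at 0.619 in Scnn1b-Tg against 0.829 in WT AMs, and the scavenger receptor gene Cd163 at 0.508 against 0.778. With any region within 100 kb of the gene, 8 of the 18 were counted, where 18.1% of all protein-coding genes had one. Of the 8 markers, 6 had a lower and 5 a higher region, so the shared direction rests on the assignment. These are counts of genes and not of separate regions. C1qa, C1qb and C1qc were counted through the same lower and the same higher region, and Ms4a7 through the Ms4a4c region. Resident AM markers held 4 of 25 genes (16%). Next to Chil3 they were Itgax, which encodes the sorting antigen CD11c (0.459 in Scnn1b-Tg against 0.707 in WT AMs), the coagulation factor gene F7 (0.426 against 0.668) and the cytokine gene Il18 (0.579 against 0.307).

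For other leukocytes and lung tissue the counts were 0 or 1 gene per list, too small to set apart from the 6.15% of all protein-coding genes. Neutrophil and eosinophil markers held 1 of 16 genes (6.25%), the granulocyte colony-stimulating factor receptor gene Csf3r with 0.437 in Scnn1b-Tg against 0.205 in WT AMs. Lymphocyte and dendritic cell markers held 1 of 19 (5.26%), the T cell costimulator gene Cd28 with 0.905 against 0.655, and lung epithelial and stromal markers 0 of 15. A listed region is not a measure of how strongly its gene is expressed, so the sorted cell type cannot be checked from these counts. The part of other cells in the sorted samples was not tested here. The study's methods describe a purity check of the sort, which is not among the deposited levels. From its RNA sequencing, the study also estimated cell types against single-cell data and reported a homogeneous make-up of resident AMs in both genotypes. Its expression changes did not correlate with those between resident and recruited AMs. The study took these results to imply that monocytes turning into AMs can be neglected in this model. They rest on RNA and not on these regions. From its methylation data, the study also described a similar bimodal distribution of CpG levels in both genotypes, a shape it ascribes to homogeneous cells.

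**Figure D4:**
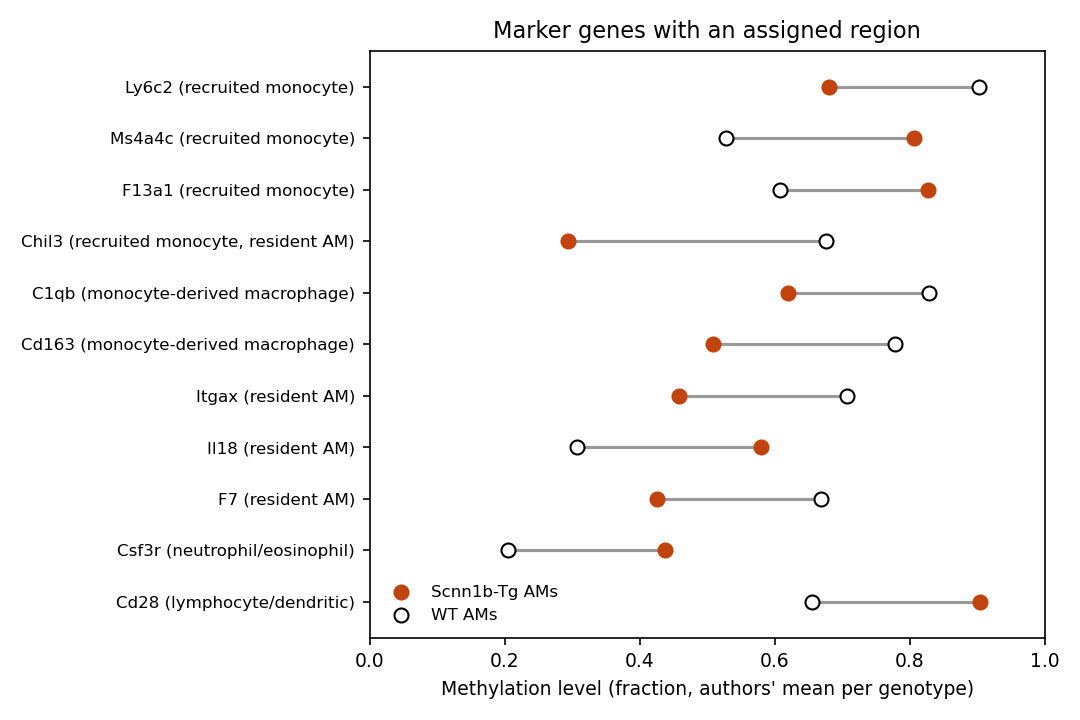
Methylation level (fraction, authors' mean per genotype) of every marker gene with an assigned region, filled circles for Scnn1b-Tg AMs and open circles for WT AMs, with the marker list in brackets. Ly6c2 and Chil3 are lower and Ms4a4c and F13a1 higher in Scnn1b-Tg AMs, from 0.294 against 0.676 at Chil3 to 0.828 against 0.609 at F13a1.

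The numbers of other regions near the 3 genes were within the usual range. A listed region had a median of 1 other region within 1 Mb, with quartiles of 1 and 3. Within 1 Mb of the Ly6c2 region there were 2, both lower in Scnn1b-Tg AMs, at 235.5 kb (assigned to Cyp11b2, 0.675 in Scnn1b-Tg against 0.858 in WT AMs) and at 383 kb (assigned to 9030619P08Rik, 0.597 against 0.811). Within 1 Mb of the F13a1 region there were 2, both higher in Scnn1b-Tg AMs. One, at 366 kb, was assigned to Ly86, which encodes MD-1, a partner of a Toll-like receptor homologue of B cells and macrophages, and had 0.506 in Scnn1b-Tg against 0.233 in WT AMs over 6 CpGs. The other, at 717 kb, lay at the promoter of the transcription factor gene Rreb1, with 0.446 against 0.281. The Ms4a4c region had 1 neighbour within 1 Mb, at 964 kb and of the opposite direction (assigned to Lrrc10b, 0.241 in Scnn1b-Tg against 0.466 in WT AMs). Just beyond 1 Mb lay 2 regions of its own direction, at 1013 kb (assigned to Pfpl, 0.647 in Scnn1b-Tg against 0.402 in WT AMs) and at 1026 kb (assigned to Syt7, 0.572 against 0.317).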

How the data were processed

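AMs of 3 Scnn1b-Tg and 4 WT samples were profiled by tWGBS. The submitters' processing notes name Trimmomatic 0.36, BWA 0.7.8, Picard and MethylDackel, and the build mm10. The study's methods add smoothing of each sample's profile with bsseq and calling of regions with DSS. Smoothing shares information between neighbouring CpGs, so the CpGs of a region are not separate measurements. The deposited methylation levels are fractions that the authors averaged per region and genotype. The deposited numbers of CpGs, lengths and TSS distances were used as given, and the authors' own difference and area statistic were not used. 0 columns of other samples were left out.

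Regions were read against the GRCm38.p6 reference and RefSeq annotation (Python 3.11.15, pandas 2.3.3, pysam 0.24.0) and copies were found with BLAST+ 2.17.0. The number of reference CpGs equalled that of the table in 1707 of 1926 regions and was higher in 219. No test was run, since each genotype has 1 value per region. Scripts were tested on simulated data. Named were the 3 genes, the nearest genes on either side, the families' and marker lists' genes with a region, and Scnn1b. Genes, lists and motifs were chosen with earlier results of these data known, and the search for copies, the promoter CpG counts, the marker distances and the counts of neighbours over all regions were chosen after seeing the data.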

Additional observations from a re-analysis of the deposited data

How the results depend on the processing

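The direction of the 3 regions follows from the deposited levels and from the reading of their columns given above, and no alternative was run for it. Of 21 alternatives for the other values, 7 stayed close to the reported value and 14 moved. The share of regions of the same direction with a larger difference, 65.5% at Ly6c2, was 79.2% among regions with an absolute difference of at least 0.2, 73.8% among regions with 4 to 5 CpGs and 69.5% within its annotation class. At Ms4a4c the share of 14.2% became 21.5% and 18.3% under the same choices, and 13.7% within introns. At F13a1 the share of 46.2% became 70.1%, 57.8% and 55.2%. The higher shares at a difference of 0.2 follow from the removal of smaller differences. The count of recruited monocyte markers with a region, 4 by the authors' assignment, was 8 with any region within 100 kb of the gene (18.1% of all protein-coding genes) and 2 with a region in the gene or the first 3 kb upstream (3.41%). Within 500 kb, Ms4a4c had 0 neighbouring regions and F13a1 had 1. With 100 bases added on each side, the Ms4a4c region held 1 motif match (ETS) and the F13a1 region held 1 (AP-1). No paired analysis was possible because the table holds 1 mean per genotype, although replicate numbers 1, 3 and 5 occur in both. Without values per sample, no replicate could be left out, and the depth and spread that limit each level are unknown.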

Other observations

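Beyond the authors' assignment, 4 other genes on the recruited monocyte list had a region within 100 kb of the gene, each lower in Scnn1b-Tg AMs. They are named because there were few of them, after their values were seen. The region near Treml4, a receptor-like gene of patrolling monocytes, had 0.466 in Scnn1b-Tg against 0.819 in WT AMs. That near Hp, which encodes haptoglobin, had 0.663 against 0.887, and that near Fcgr1, which encodes the IgG receptor CD64, had 0.677 against 0.901. The region near Itgam is the Itgax region given above. With these, 6 of 8 markers had a lower and 2 a higher region in Scnn1b-Tg AMs, beside 72.9% and 27.1% of all listed regions. All 4 were assigned by the authors to other genes.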
